A study of Caenorhabditis elegans with 2 samples.

Results

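The spliced leader RNA genes of Caenorhabditis elegans were examined for binding of the protein of Y79H2A.3 in ChIP-seq peak lists. The members were all 30 nuclear genes whose name begins with sls- in the Ensembl annotation of WBcel235, out of 46890 nuclear genes. They fall into 12 genes of the sls-1 group, all on chromosome V, and 18 genes of the sls-2 group, on chromosomes I to IV. A gene was counted when its window, 1000 bp before the annotated start to 200 bp after it, held a peak summit.

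Chromatin came from whole young adults, 63 hours old, of strain RW12273, genotype st12273[Y79H2A.3::TY1::EGFP::3xFLAG] III. In this strain CRISPR had been used to insert the TY1, EGFP and 3xFLAG tags at Y79H2A.3, and the worms had been synchronised by bleaching and starvation at the first larval stage. The tagged protein was precipitated with an antibody against GFP after sonication. The study has 1 group of 2 biological replicates and no second condition, so the values are given as a description with no test, and 2 replicates give no usable error. No untagged or input control was analysed here, and whole animals give no value per tissue.

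Spliced leader RNAs are short nuclear RNAs whose leader is joined to the 5′ ends of many nematode messenger RNAs by trans-splicing. SL1 RNA, made by the sls-1 genes, mostly supplies the first or only gene of a transcription unit, and SL2 RNAs, made by the sls-2 genes, mostly supply downstream genes of operons. Each RNA travels as a small nuclear ribonucleoprotein with Sm proteins bound at a uridine-rich Sm site. Like most other spliceosomal small nuclear RNAs they are transcribed by RNA polymerase II from promoters recognised by the complex SNAPc, through a proximal sequence element upstream of the start.

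The promoters are shown first because most summits near these genes lay at or close to the start. Each line gives the 90 bases just upstream of the start, 5′ to 3′ on the strand of the gene, from the RefSeq WBcel235 genome. Capitals mark the letters TGTCNG where they begin 46 to 48 bases upstream. The first 3 genes listed have nearly the same RNA and the next 3 nearly the same promoter, and the last line is 1 of the sls-1.10 copies.
sls-2.1, chrII:5844775-5844864, plus strand: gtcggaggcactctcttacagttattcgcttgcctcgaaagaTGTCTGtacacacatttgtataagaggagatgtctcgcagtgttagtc
sls-2.2, chrII:5543508-5543597, plus strand: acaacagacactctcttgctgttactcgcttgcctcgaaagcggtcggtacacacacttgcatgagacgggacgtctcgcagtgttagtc
sls-2.3, chrII:5544274-5544363, minus strand: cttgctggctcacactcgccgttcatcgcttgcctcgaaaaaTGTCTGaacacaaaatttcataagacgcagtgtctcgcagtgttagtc
sls-2.12, chrIV:5261823-5261912, plus strand: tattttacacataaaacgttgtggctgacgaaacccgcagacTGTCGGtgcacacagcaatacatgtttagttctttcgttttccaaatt
sls-2.13, chrIV:5063532-5063621, minus strand: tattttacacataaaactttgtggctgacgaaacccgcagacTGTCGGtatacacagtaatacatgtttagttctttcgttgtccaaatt
sls-2.17, chrIV:5317369-5317458, minus strand: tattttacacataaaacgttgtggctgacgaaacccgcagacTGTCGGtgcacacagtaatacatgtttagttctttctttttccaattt
sls-2.15, chrIII:11090920-11091009, plus strand: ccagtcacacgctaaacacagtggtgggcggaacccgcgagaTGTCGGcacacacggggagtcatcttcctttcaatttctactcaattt
sls-2.8, chrIII:12250375-12250464, plus strand: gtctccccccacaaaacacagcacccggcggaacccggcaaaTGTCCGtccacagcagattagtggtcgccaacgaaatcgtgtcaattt
sls-1.10 (WBGene00077486), chrV:17122748-17122837, minus strand: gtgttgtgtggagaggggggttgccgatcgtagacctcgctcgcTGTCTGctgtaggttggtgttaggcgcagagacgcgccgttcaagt

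The letters TGTCNG, chosen after the promoters had been read, began 48 bases upstream in 13 sls-2 genes and 47 bases upstream in 2 (sls-2.10 and sls-2.11). They began 46 bases upstream in all 10 sls-1.10 copies. On either strand of the 90 bases, 17 of 18 sls-2 genes held them (94.4%), against 8.68% of the promoters of 46886 nuclear genes. The 3 sls-2 genes without the letters at that place were sls-2.2, sls-2.6 and sls-2.7. The 10 sls-1.10 promoters came in 2 versions that differ at 1 base. A match is a run of letters and does not show a bound factor.

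Within the RNAs, each of the 18 sls-2 genes began with a leader of 21 to 23 bases, in 11 different versions. The commonest was shared by 4 genes, sls-2.1, sls-2.2, sls-2.3 and sls-2.4. Versions carried by other members are printed below in capitals to show how they differ, and the gene of sls-2.8 is given whole (chrIII:12250465-12250575, plus strand, RefSeq WBcel235), with its leader and then the letters TTTTGG of its Sm site in capitals.
sls-2.14 leader: GGTTTTTACCCAGTTAACCAAG
sls-2.15 leader: GGTTTATACCCAGTTAACCAAG
sls-2.12 and sls-2.13 leader: GGTTTTAACCCAGTTAATTGAG
sls-2.17 leader: GGTTTTAACCAGTTAACTAAG
sls-2.10 and sls-2.11 leader: GGTTTAAAACCCAGTTACCAAG
sls-2.8 gene: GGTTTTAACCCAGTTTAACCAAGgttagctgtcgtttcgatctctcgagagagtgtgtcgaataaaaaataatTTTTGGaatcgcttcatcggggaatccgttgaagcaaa

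The letters TTTTGG were in 29 of 30 spliced leader RNA genes and absent from sls-2.18. Counted on either strand over the first 110 bases from the start, 96.7% of the members held them, against 16.3% of all nuclear genes. Both sls-1.1 genes hold only the last 68 bases of the 98-base sls-1.10 sequence, from 30 bases into it, so they hold no leader. Their 90 upstream bases held TGTCNG on neither strand, so these are not the sls-1.10 promoter followed by the missing 30 bases.

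The lists hold peaks of mostly 1 width per list with a summit and a signal value, which is the authors' own peak height on a scale that is not stated. A ranked list gives each peak an IDR, the irreproducible discovery rate, which is low where a peak ranks alike in the 2 peak sets compared. The peaks of the thresholded lists all had an IDR of 0.01 or less, which is 2 or more as −log10. Each kind exists for replicate 1, for replicate 2, for the replicates compared with each other and for pooled reads. Outside the comparison lists an IDR does not measure agreement between the 2 replicates. The thresholded list of the compared replicates, called conservative by the submitters, is the one meant below unless another is named. It holds 1021 peaks with a median signal value of 82.89, against 442 in the list of replicate 1 and 393 in that of replicate 2. The ranked comparison list holds 77086 peaks, and since so many were listed a ranked peak says little by itself. Read depth is unknown.

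In the conservative list, 6 of the 30 spliced leader RNA genes had a summit in the window, against 2.20% of all nuclear genes. All 6 were sls-2 genes (6 of 18), and 0 of 12 sls-1 genes had one. They shared 5 peaks, since 1 peak lay in the windows of sls-2.14 and sls-2.15. Within 150 bp of the start on either side, 5 of 30 had a summit, against 1.00% of all nuclear genes. The same 6 genes had a summit in the thresholded list of pooled reads, against 1.97% of all nuclear genes. The 5 peaks had the same position and signal value in both lists, so the pooled list is no separate support. The list of replicate 1 gave 4 of 30 (background 0.998%) and that of replicate 2 gave 3 of 30 (background 0.868%). The 5 conservative peaks had a median signal value of 96.22, against 82.89 over the whole list.

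**Figure D1:**
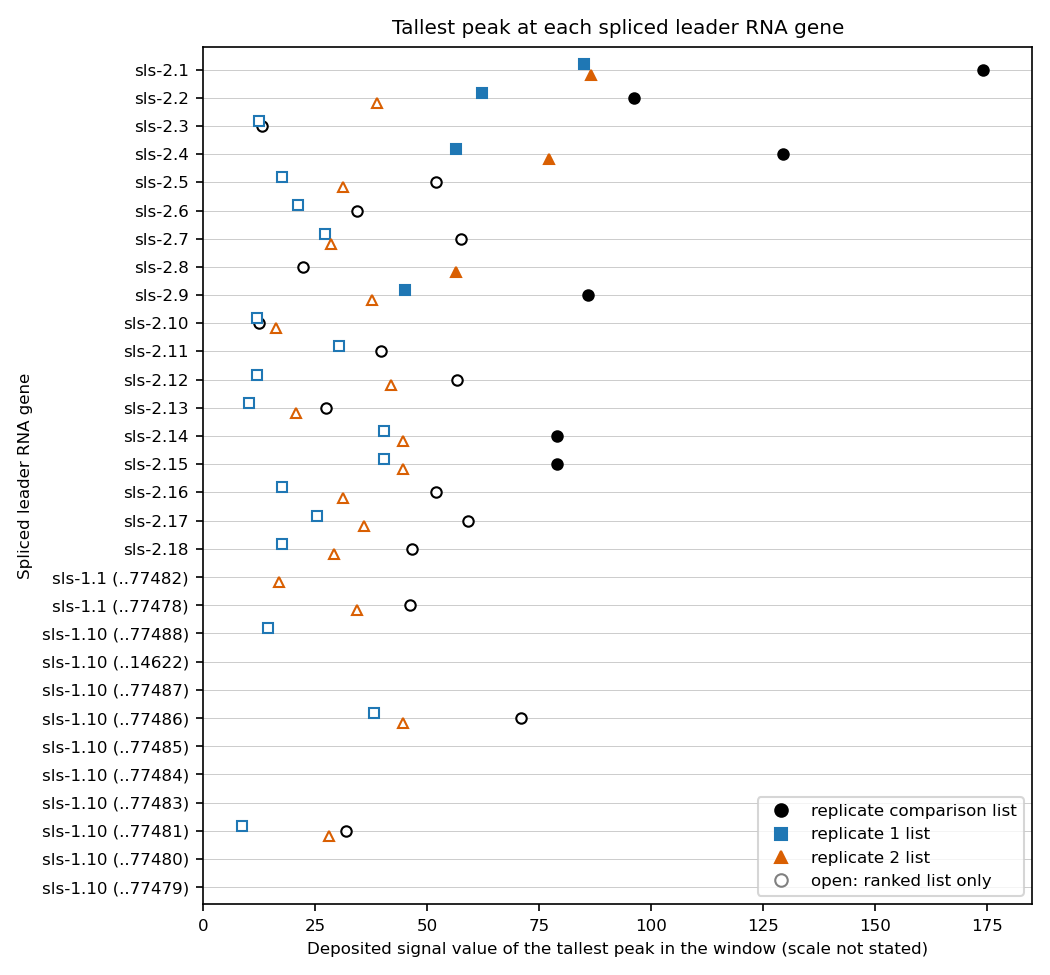
Signal value of the tallest peak in the window of each spliced leader RNA gene (horizontal axis, deposited scale not stated) in the comparison list and the lists of replicates 1 and 2, 1 gene per row, with sls-1 copies marked by the last 5 digits of their gene ID. Filled marks are peaks that are also in the thresholded list and open marks are in the ranked list only; sls-2.1 stands highest at 174.0, and the filled marks are all at sls-2 genes.

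The tallest peak was at sls-2.1, an SL2 RNA gene on chromosome II (5844865 to 5844974, plus strand). Its signal value was 174.0, rank 57 of 1021, in the conservative list and in the pooled list. Replicate 1 gave 85.05 and replicate 2 gave 86.49, both in their thresholded lists. The summit lay 8 bases after the start, inside the gene, with replicate summits 13 bases after and 18 bases before it. All these summits thus lay on or just before the first bases of the RNA. The next start of any gene that is not a member was that of protein-coding ZK1248.17, 668 bp away, and the window of H41C03.3 also held the summit.

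At sls-2.4 on chromosome I (4172206 to 4172315, plus strand) the signal value was 129.5, rank 137, also in both the conservative and the pooled list. Replicate 1 gave 56.32 and replicate 2 gave 77.22, again both thresholded. The summit lay 103 bases after the start, near the end of the RNA gene. The replicate summits were 164 bases after the start in replicate 1 and 61 bases after it in replicate 2. A start of the noncoding gene R12E2.18 is 3 bp from the conservative summit, and egg-5, which encodes an egg surface pseudophosphatase, starts 720 bp away. These assignments cannot be told apart from the peak position.

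At sls-2.2 on chromosome II (5543598 to 5543707, plus strand) the conservative and pooled signal value was 96.22, rank 333, with the summit on the first base of the gene. Replicate 1 gave 62.24, with its summit 13 bases after the start, in its thresholded list. Replicate 2 gave 38.8, with its summit 27 bases before the start, in its ranked list only, at a −log10 IDR of 0.75. The peak was thus in every thresholded list but that of replicate 2. The pooled thresholded list held a second peak in this window, of 10.28, at 200 bases after the start. The noncoding gene C17C3.23 overlaps the summit at the start, and its start is 100 bp away.

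At sls-2.9 on chromosome I (13297877 to 13297985, plus strand) the conservative and pooled signal value was 85.77, rank 472 in the conservative list. The summit lay 106 bases before the start. It was 26 bp from the start of a tRNA gene (WBGene00014446), closer than to sls-2.9. Replicate 1 gave 45.0 in its thresholded list, with the summit 143 bases before the start and inside that tRNA gene. Replicate 2 gave 37.52 in its ranked list only, 103 bases before the start. The peak cannot be assigned to the spliced leader gene over the tRNA gene.

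The genes sls-2.14 (11090412 to 11090523, minus strand) and sls-2.15 (11091010 to 11091121, plus strand) lie head to head on chromosome III, with starts 487 bp apart, inside protein-coding W09D6.5. The conservative and pooled peak of 78.94, rank 597 in the conservative list, had its summit 52 bases after the sls-2.14 start and 539 bases before that of sls-2.15. In the ranked lists replicate 1 gave 40.39 and replicate 2 gave 44.56 for this peak, and neither thresholded list held it. In the ranked comparison list sls-2.15 had a peak of its own, of 69.1, with the summit 143 bases after its start and a −log10 IDR of 1.29. The sls-2.15 summit in the ranked list of replicate 1 (22.42) lay 118 bases after the start, and that in replicate 2 (35.53) lay 132 bases after it.

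The gene sls-2.8 on chromosome III (12250465 to 12250575, plus strand) was the only member with a thresholded peak in a replicate and none in the conservative list. Replicate 2 gave 56.28, with the summit 21 bases before the start and a −log10 IDR of 2.45. Replicate 1 and the pooled reads had no peak in the window, even in their ranked lists. The ranked comparison list held a peak of 22.31 at 675 bases before the start. The windows of protein-coding tim-1 and Y75B8A.23 and of the noncoding Y75B8A.49 also held the summit of replicate 2.

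**Figure D2:**
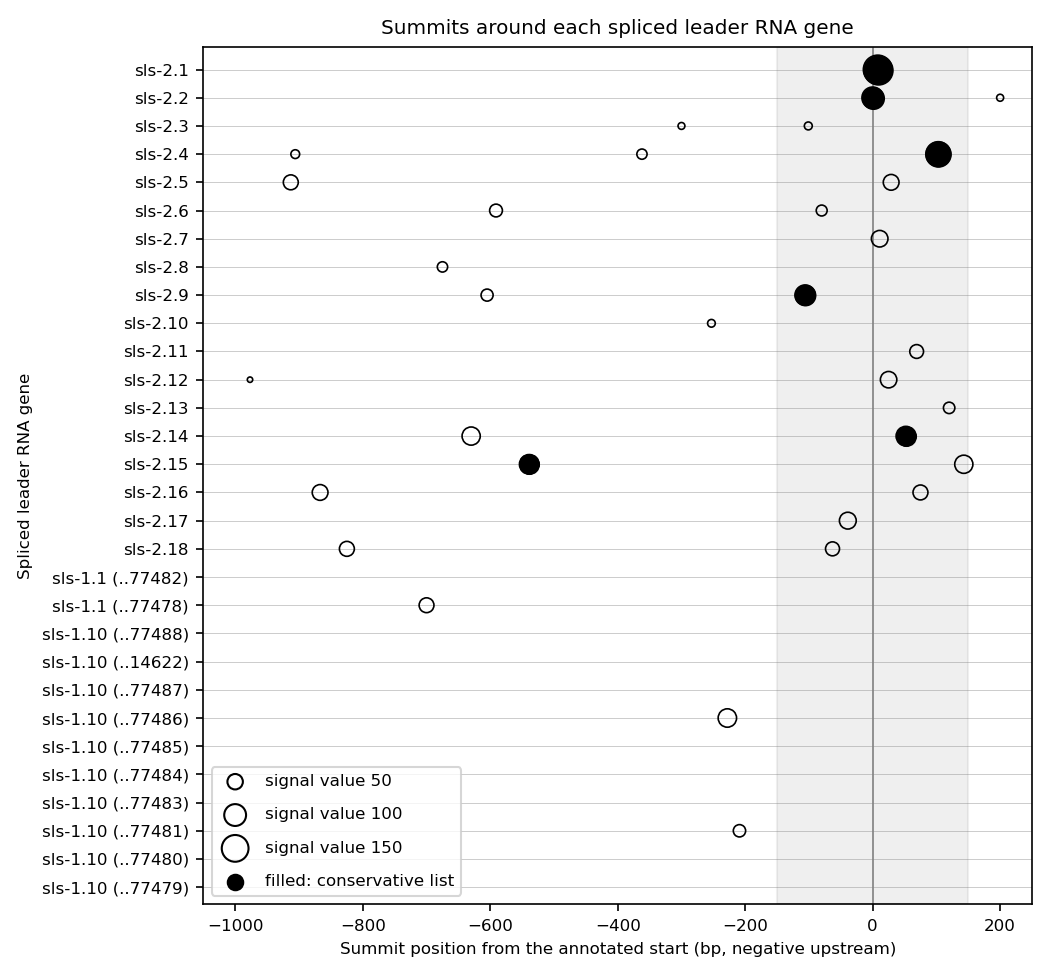
Summit position from the annotated start (horizontal axis, bp, negative upstream) for every peak of the ranked comparison list in the window of each spliced leader RNA gene, with the area of a circle in proportion to the signal value. Filled circles are in the conservative list, the shaded band is 150 bp either side of the start, and the band holds a summit at 16 of 18 sls-2 genes and at 0 of 12 sls-1 genes.

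With no threshold applied, the ranked comparison list had a summit in the window of 21 of the 30 genes, against 53.5% of all nuclear genes. That share is 18 of 18 sls-2 genes and 3 of 12 sls-1 genes. Within 150 bp of the start the list had a summit at 16 of 30, all of them sls-2 genes, against 23.9% of all nuclear genes. The exceptions among the sls-2 genes were sls-2.8 and sls-2.10. The median of the tallest signal value within 150 bp was 57.02 over the 16 genes and 25.78 over the 11201 nuclear genes with a summit there. Over the 16 genes the median summit position was 18 bases after the start and the median distance from it 66 bp. Over the 11201 nuclear genes these were 7 bases after the start and 70 bp. The range of 150 bp bounds both sets, so these positions do not set the members apart.

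In the ranked list of replicate 1, 12 of 30 genes had a summit within 150 bp of the start (background 14.0%). In that of replicate 2, 14 of 30 had one (background 15.4%). A summit in both replicates was listed for 11 of 30 genes, against 6.26% of all nuclear genes. For these 11 sls-2 genes the 2 summits lay a median of 31 bp apart and at most 73 bp apart. Signal values in replicate 2 were a median of 1.1 times those in replicate 1, higher at 9 genes and lower at 2, sls-2.2 and sls-2.9. The ratio was lowest at sls-2.2 (0.623) and highest at sls-2.12 (3.48), where replicate 1 gave 12.03 and replicate 2 gave 41.81. Signal values were not rescaled between the replicate lists, whose medians over all ranked peaks were 15.78 in replicate 1 and 17.65 in replicate 2.

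Among genes with no thresholded peak, the 3 of highest signal value in the ranked comparison list were a copy of sls-1.10 (WBGene00077486) at 70.91, sls-2.17 at 59.16 and sls-2.7 at 57.51. The sls-2.17 summit lay 39 bases before the start, at a −log10 IDR of 1.60, and the sls-2.7 summit 11 bases after it, at 1.41. The other sls-2 genes with no thresholded peak and a summit within 150 bp lay between 13.17 at sls-2.3 and 56.53 at sls-2.12. The −log10 IDR at sls-2.12 was 0.16, short of the threshold of 2. At sls-2.10 the only summit of the ranked comparison list lay 253 bases before the start, with a signal value of 12.46.

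Near-identical SL2 RNA genes had unlike peaks at some pairs and closer ones at others, and the values below are from the ranked comparison list unless another is named. The genes sls-2.2 and sls-2.3 face each other on chromosome II with starts 675 bp apart and share 97.27% of their aligned gene bases. Within 150 bp of the start, sls-2.2 had a signal value of 96.22, at a −log10 IDR of 3.01, and sls-2.3 had 13.17, at 0.07. In the ranked list of neither replicate did sls-2.3 have a summit there. Their promoters differ at 26 of 90 bases. The promoter of sls-2.1, with 174.0, differs from that of sls-2.2 at 18 bases and from that of sls-2.3 at 22, and the promoters of sls-2.4, with 129.5, and sls-2.2 differ at 33. The genes sls-2.10 and sls-2.11, 99.08% identical and differing at 4 of 90 promoter bases, had 39.68 at sls-2.11 and no summit within 150 bp at sls-2.10. The ranked pooled list held 22.67 at sls-2.10, with the summit 121 bases after the start. The sls-2.11 peak was in the ranked list of replicate 1 (30.26) and not in that of replicate 2, so this contrast rests on replicate 1. The promoters of sls-2.12 and sls-2.17 differ at 3 of 90 bases, and their values were 56.53 at sls-2.12 and 59.16 at sls-2.17. Replicate 1 gave 12.03 at sls-2.12 and 25.31 at sls-2.17, while replicate 2 gave 41.81 and 35.91, in the other order of height. The promoter of sls-2.13 differs from that of sls-2.12 at 5 bases and its value was 27.29, with the summit 120 bases after the start. The genes sls-2.14 and sls-2.15, 92.92% identical, had 78.94 and 69.1. The genes sls-2.5 and sls-2.18, 92.59% identical, had 51.96 and 40.88. Of the 31-base words within 150 bp of the start, 32.84% at sls-2.12 to 96.31% at sls-2.14 and sls-2.15 occurred only once in the nuclear genome. The share was 78.97% at sls-2.2, 75.28% at sls-2.3 and 69.74% at sls-2.10 and sls-2.11. The effect of reads with several equal matches on these contrasts was not tested.

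**Figure D3:**
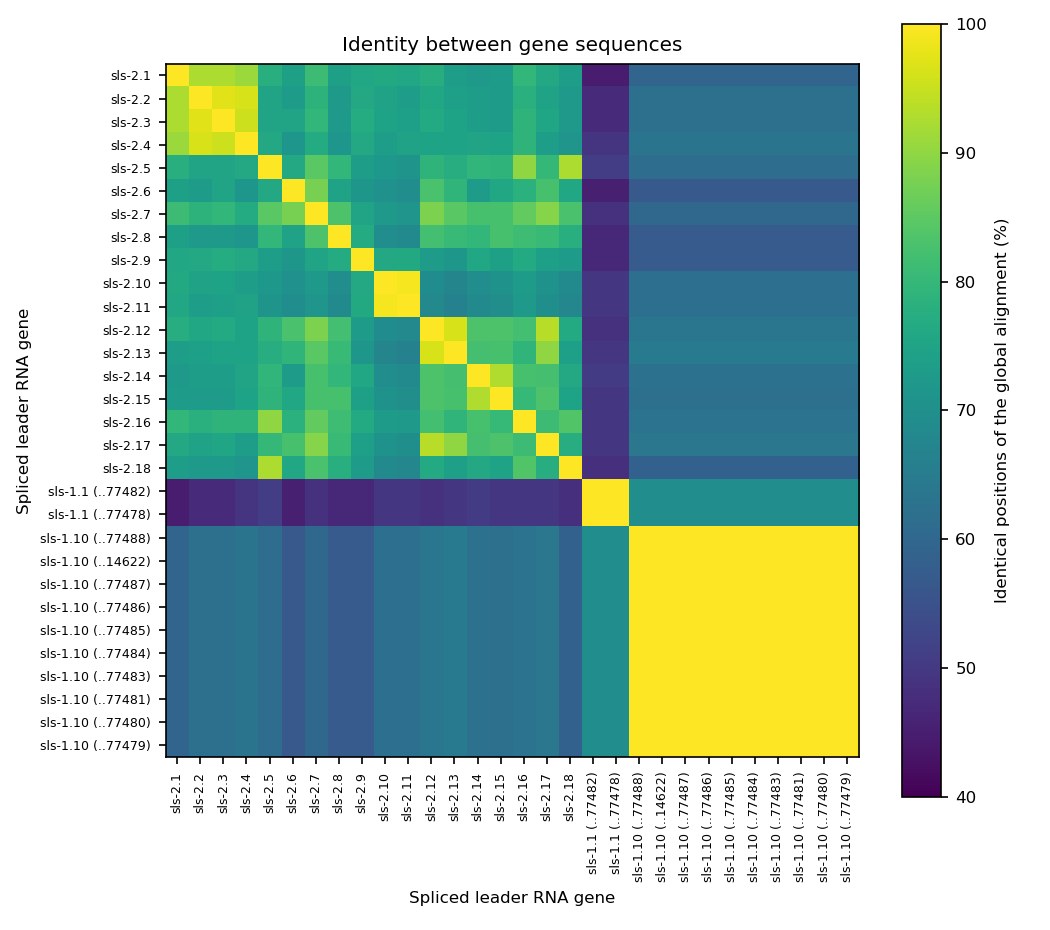
Identical positions of the global alignment between each pair of spliced leader RNA genes (colour, percent), with sls-1 copies marked by the last 5 digits of their gene ID. The 10 sls-1.10 copies are 100% identical, while pairs of sls-2 genes run between 66.39% and 99.08%.

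In the ranked comparison list, peak height varied among genes with and without the promoter letters. Of the 3 sls-2 genes without TGTCNG 47 or 48 bases upstream, sls-2.2 had 96.22, sls-2.7 had 57.51 and sls-2.6, which has the letters 72 bases upstream, had 24.92 within 150 bp of the start. Among genes with the letters there, sls-2.8 and sls-2.10 had no summit within 150 bp in that list, and the others ran between 13.17 at sls-2.3 and 174.0 at sls-2.1.

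The sls-1 genes form an array on chromosome V with the 5S ribosomal RNA genes, at a spacing of 946 to 982 bp between most neighbouring sls-1 starts. No thresholded list had a summit in any of their 12 windows, where the share of all nuclear genes was 2.20% or less. A count of 0 of 12 is near that share. No ranked list had a summit within 150 bp of an sls-1 start, against 14.0% to 23.9% of all nuclear genes. In the ranked comparison list the copy WBGene00077486 had its peak of 70.91 at 228 bases before the start. That summit lies inside a 5S gene, rrn-4.2, 55 bp from its start. Its −log10 IDR was 2.72, past the threshold, yet the peak is not in the conservative list. It is 1 of 44 such peaks in the comparison list, and the step that left them out is not given in the sources used here. Replicate 1 gave 37.98 and replicate 2 gave 44.58 there. The copy WBGene00077481 had 31.79 at 209 bases before the start, also inside a 5S gene. The sls-1.1 copy WBGene00077478, at the edge of the array, had 46.03 at 700 bases before the start.

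Sequence repeats bear on how the sls-1 values can be read. Of the 31-base words within 150 bp of the start, a median of 0% occurred only once in the nuclear genome over the 12 sls-1 genes, with a highest value of 11.44%. Over the whole window the sls-1 median was 2.818%, and 11 of 12 genes were under 50%. The same median over the 18 sls-2 genes was 90.77% within 150 bp and 94.53% in the window. The lowest sls-2 value within 150 bp was 32.84%, at sls-2.12, and at 100-base words it was 100%. How reads with several equal matches were handled is not given in the sources used here. The lack of sls-1 peaks and a loss of such reads cannot be told apart. The 3 sls-2 genes with 100% of these words occurring once within 150 bp were sls-2.8, with no ranked comparison summit there, sls-2.16, with 46.66, and sls-2.9, with 85.77.

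**Figure D4:**
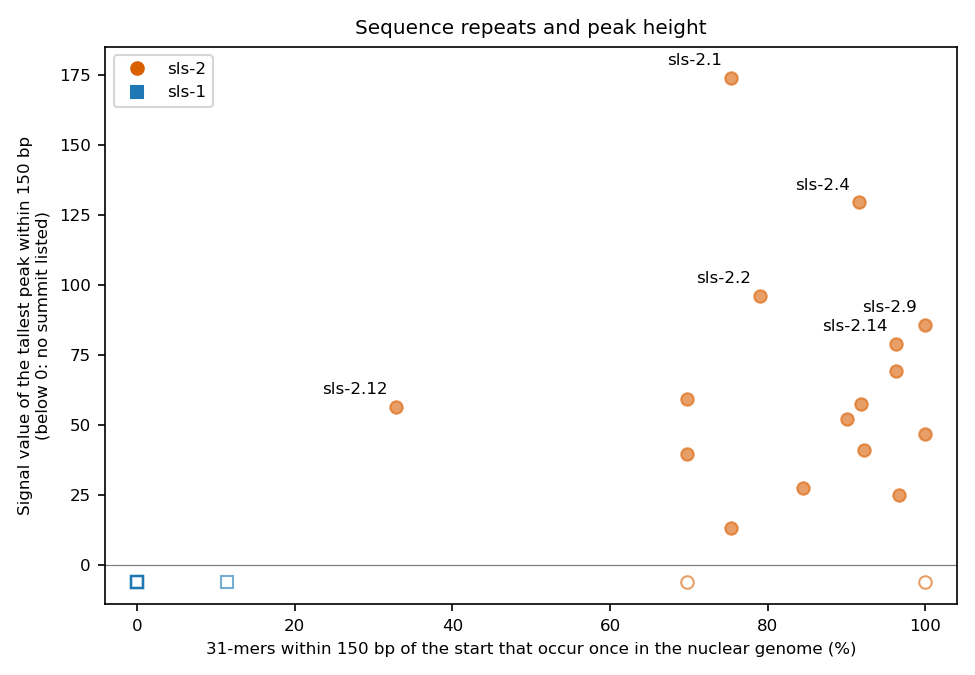
Share of 31-base words within 150 bp of the start that occur once in the nuclear genome (horizontal axis, percent) against the signal value of the tallest ranked comparison peak there (vertical axis, deposited scale not stated), 1 mark per spliced leader RNA gene, with open marks below 0 for genes with no listed summit. All 12 sls-1 genes (squares, overlapping) lie at 11.44% or less with no summit, and sls-2.1 stands at 75.28% and 174.0.

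Other small RNA genes had conservative peaks too. Beside 6 of 30 spliced leader RNA genes, a summit lay in the window of 13 of 99 other snRNA genes and 94 of 612 tRNA genes, against 2.20% of all nuclear genes. None was listed for the 12 SmY RNA genes or for the 16 5S ribosomal RNA genes. The SmY genes encode nematode RNAs that associate with the trans-splicing machinery. In classes this small, finding none is near the share of 2.20%, so it does not set them apart from all nuclear genes. Many 5S genes lie in the array with the sls-1 genes, and sequence repeats at 5S genes were not counted. The ranked comparison peak of 70.91 inside a copy of rrn-4.2 had a −log10 IDR of 2.72, past the threshold. It is not in the conservative list. Within 150 bp in the ranked comparison list 16 of 30 spliced leader RNA genes had a summit (53.3%), all among the 18 sls-2 genes. There were 54 of 99 other snRNA genes (54.5%), 454 of 612 tRNA genes (74.2%), 4 of 12 SmY genes and 4 of 16 5S genes, against 23.9% of all nuclear genes. The median of the tallest signal value there was 57.02 for the sls-2 genes, 43.89 for other snRNA genes and 48.05 for tRNA genes.

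Of 22 genes for proteins that act in trans-splicing or in the making of spliced leader RNAs, 5 had a conservative summit in the window, against 2.20% of all nuclear genes, and 1 had it within 150 bp of the start, against 1.00%. That gene was snpc-3.4, which encodes a SNAPc subunit, at 134.8 and 46 bases before the start. Its value was above those of 4 of the 5 spliced leader peaks. The gene smn-1, whose product assembles Sm proteins on small nuclear RNAs, had 126.4 at 156 bases before the start. The Sm protein genes snr-1 and snr-4 had 118.5 and 111.9, at 387 and 411 bases before their starts. The gene sna-2, for a protein of the SL1 ribonucleoprotein, had 101.8 at 572 bases before the start. Whether other genes start nearer to the summits of these 5 genes was not examined. The other 17, among them sna-1, tgs-1, uaf-1, uaf-2 and snpc-4, had none.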

How the data were processed

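The 8 peak lists on ce11 (the same assembly as WBcel235) were read as deposited. Per the file headers and labels, the authors gave each peak a signal value, on a scale not stated, and a summit offset, and the deposited ranked lists also hold a −log10 of the global IDR. No aligner, peak caller or control is named in the sources used here. All thresholded peaks reached 2 on that −log10 scale in the matching ranked list. Of 120 columns, 76 were not used. No read counts are given, so depth and counting error are unknown.

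Summits (start plus offset, printed from 1) were matched to Ensembl release 115 transcript starts on the 6 nuclear chromosomes, in windows of 1000 bp upstream to 200 bp downstream, with Python 3.11.15 and NumPy 2.4.6. Genes were aligned globally with Biopython 1.88, and words of 31, 50 and 100 bases were counted on both strands of the RefSeq genome. Figures used matplotlib 3.10.9. The matching step was tested on simulated data, and all 48 summits placed at 8 genes were handled rightly. Those placed in the window came back where they had been put, and those placed just outside it were left out.

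Members and gene lists were chosen with earlier results of these data known. Named are the members with a summit in any thresholded list, the 3 highest others in the ranked comparison list, and listed genes of small RNA and trans-splicing classes; further members were named after their values were seen. No test was run, since there is 1 group, and the range of 150 bp was chosen after seeing the data. Sequences of some members are not reported here.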

Additional observations from a re-analysis of the deposited data

How the results depend on the processing

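The count of 6 genes in the conservative list was 3 when a summit was given only to its nearest start, 3 at an IDR of 0.001 or less, and 3 to 4 over the lists of 1 replicate alone. It was 6 with pooled reads, whose list holds the same 5 peaks and so is no separate check. It was also 6 with any overlapping base and in the window of 2000 bp upstream to 500 bp downstream. The count was 4 in the window of 500 to 100 bp, and 5 within 150 bp, the last chosen after seeing the data. The 5 peaks were 3 at an IDR of 0.001 or less and 3 to 4 over the single replicates. Their median signal value of 96.22 was 59.28 in replicate 1 and 77.22 in replicate 2. The medians over all peaks of those 2 thresholded lists were also lower, at 54.77 and 62.32, against 82.89 in the conservative list. The median summit position, taken per gene so that the shared peak counts at both its genes, was 4 bases after the start. Positions ran from 539 bases before the start to 103 after it. Over the single replicates the median position was -18 to 13. The ranked count of 21 genes was 9 at an IDR of 0.05 or less and 7 at 0.01 or less. The share of all nuclear genes was not computed for the nearest start, any overlap, the other windows or the other IDR limits. Counts under those settings therefore cannot be read as more or less than background. The 11 genes with under 50% of words occurring once were 18 at under 90%. Single replicates gave lower signal values than the comparison list at each of the 6 genes of the conservative list. The same held for the medians over all ranked peaks, 15.78 and 17.65 against 22.73, so it is no trait of these genes. At their 5 peaks the comparison list holds the same signal values as the list of pooled reads. Unknown depth limits every absence.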
